A study of Homo sapiens with 48 samples.

Results

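The genes described here encode 9 factors of nonsense-mediated decay (NMD), and they were chosen by name, with earlier results of these data known. They are SMG1, C17orf71 (the older symbol of SMG8), C19orf61 (the older symbol of SMG9), UPF1, UPF2, UPF3A, UPF3B, SMG5 and SMG6. All 9 were found among the 19847 entries of the RNA-sequencing count table, and all 9 were among the 9991 genes with enough reads to be tested. The cells were IMR90, a human lung fibroblast line, and all of them carried a fusion of the oestrogen receptor ligand-binding domain with oncogenic RAS (ER:RAS) that had been introduced by retroviral infection. They were treated with 4-hydroxytamoxifen (4OHT), which switches the fusion on, or with the solvent DMSO for 6 days, were then transfected with siRNA, and were collected 2 days later in low serum. The siRNAs were non-targeting (siNT1 and siNT2), against the splicing factor SF3B1 (siSF3B1-13 and siSF3B1-16) or against the splicing factor RBM39 (siRBM39-06 and siRBM39-08). Each siRNA was used in 4 replicates under each treatment, so that there were 6 groups of 8 libraries and 48 libraries in all. No cells without the ER:RAS fusion are in the groups compared, so an effect of RAS and an effect of 4OHT itself cannot be told apart. The study's methods describe in vitro replicates as independent experiments, while the labels of these libraries give only a replicate number.

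NMD is a surveillance pathway that degrades mRNAs on which translation stops too early, typically where an exon junction lies downstream of the stop codon. The helicase UPF1 is recruited to the stalled ribosome and is phosphorylated by the kinase SMG1, which works in a complex with SMG8 and SMG9. UPF2 and UPF3B (or its paralogue UPF3A) connect UPF1 with the exon junction complex, a protein marker that splicing leaves on the mRNA, and phosphorylated UPF1 then recruits the endonuclease SMG6 and the adaptor SMG5. SF3B1 is a core protein of the U2 snRNP, which recognises the branch point of introns, and RBM39 is a regulatory splicing factor related to U2AF2.

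The libraries held between 31467221 and 52734636 counts (median 39656598). The targeted genes followed the labels. On the CPM scale (counts relative to library size after TMM scaling), SF3B1 was at 311 to 396 CPM in DMSO siNT and at 30.4 to 35.2 CPM in DMSO siSF3B1, and at 315 to 340 and 25.3 to 30.7 CPM in the same groups under 4OHT. RBM39 was at 158 to 185 CPM in DMSO siNT and at 24.2 to 30.96 CPM in DMSO siRBM39, and at 115 to 127 and 13.8 to 18.4 CPM under 4OHT. The library of 4OHT siRBM39-08 replicate 4 stood apart, with a median absolute log2 deviation from its group of 0.502 across genes against 0.0303 to 0.267 in the other 47 libraries. The highest of those 47 values was that of DMSO siRBM39-06 replicate 1, and the next was 0.175. Calls that rest on the library that stood apart are given below with and without it. All 7 fibroblast markers examined were detected in every library, at a summed level of 51119 to 57580 CPM in DMSO siNT and 14371 to 15260 CPM in 4OHT siNT. Of 10 markers of epithelial, endothelial and immune cells, 4 were detected in every library and the summed level of all 10 was 38.8 to 143 CPM, most of it CD68, while the endothelial marker PECAM1 was at 0 throughout. This sum was 41.1 to 52.5 CPM in DMSO siNT and 77.7 to 91.1 CPM in 4OHT siNT, and its part in the 4OHT comparison was not tested.

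Across the members, levels were compared as cRPKM, the deposited count corrected for the mappable length of each gene and for library size. In DMSO siNT cells the SMG5 mRNA was the most abundant at 28.8 ± 1.17 cRPKM (SD, n = 8). It was followed by UPF1 at 24.9 ± 1.09, UPF3A at 20.2 ± 1.01, SMG6 at 14.9 ± 0.727 and C19orf61 at 14.2 ± 0.818 cRPKM. SMG1 (9.90 ± 0.932), UPF2 (9.34 ± 0.499), C17orf71 (8.39 ± 0.319) and UPF3B (5.97 ± 0.578) had the lowest levels. The ranges of SMG6 and C19orf61 overlapped, as did those of SMG1 and UPF2, so neither pair could be ordered. UPF3B was also the least deeply covered member, with 134 to 939 reads per library (median 488.5), and SMG5 had 4578 to 12319 reads. The SMG1 gene has near-identical partial copies elsewhere on chromosome 16, so its count is uncertain where the counting could split reads between them.

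**Figure D1:**
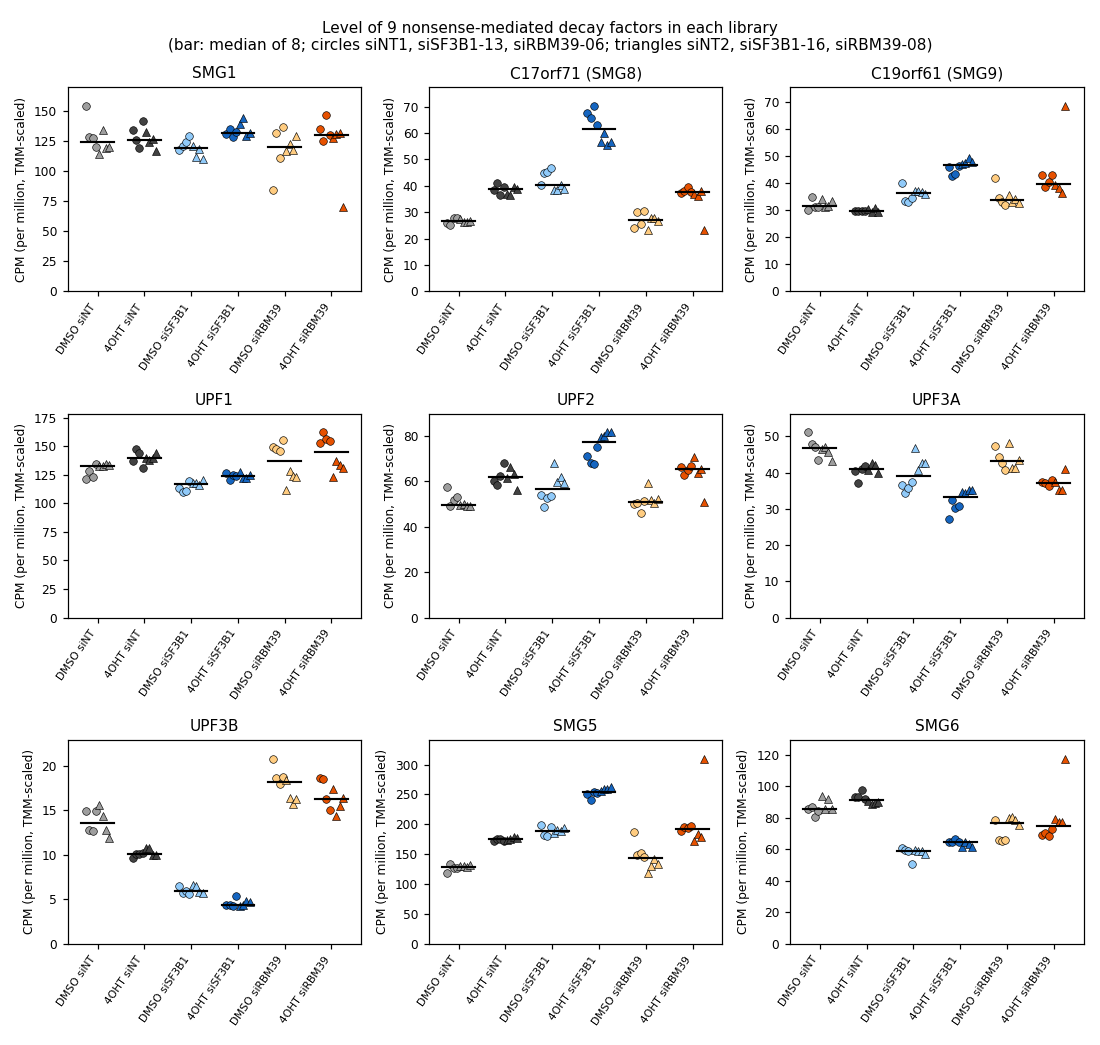
Level of each of the 9 members in CPM (vertical axis, 1 panel a gene) in the 6 groups of treatment and siRNA (horizontal axis), with 1 point per library, shaped by siRNA, and a bar at the group's median. UPF3B sat between 11.9 and 15.6 in DMSO siNT, between 5.54 and 6.63 in DMSO siSF3B1 and between 15.7 and 20.8 in DMSO siRBM39, and 4OHT siRBM39-08 replicate 4 lay outside the rest of its group for SMG1, SMG5, SMG6, C17orf71, C19orf61 and UPF2.

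The first question was how NMD factor mRNAs changed when SF3B1 was depleted. UPF3B fell to 0.440 and 0.450 times its control level in DMSO and 4OHT, and SMG6 fell to 0.669 and 0.696 times. C17orf71 rose 1.56-fold and 1.61-fold and SMG5 rose 1.48-fold and 1.45-fold. By edgeR's quasi-likelihood test with a Benjamini-Hochberg adjusted p under 0.05, 8 of 9 members changed in DMSO and 8 of 9 in 4OHT, 4 higher and 4 lower each time, and SMG1 did not pass. Over all genes tested, 72.7% changed in DMSO (36.5% higher and 36.2% lower) and 77% in 4OHT (39.4% higher and 37.6% lower), so the members' share is near the background. At a change of at least 1.5-fold, 2 members were called in DMSO (UPF3B and C17orf71) against 25.7% of all genes, and 3 in 4OHT (those and C19orf61) against 31.8%. The median absolute log2 fold change of the members was 0.231 in DMSO against 0.342 for all genes, and 0.522 in 4OHT against 0.394.

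RBM39 depletion changed fewer members. By the same test 3 of 9 were called in DMSO (SMG5 and UPF3B higher, SMG6 lower) and 5 of 9 in 4OHT (SMG5, C19orf61 and UPF3B higher, SMG6 and UPF3A lower). Without the library that stood apart the count in 4OHT was 4, and SMG5 was lost. Over all genes the shares were 46.1% in DMSO (23.9% higher and 22.2% lower) and 56.4% in 4OHT (32.2% higher and 24.3% lower). At 1.5-fold, no member was called in DMSO, where 6.63% of all genes were, and UPF3B alone was called in 4OHT, where 10.7% were. The median absolute log2 fold change of the members was 0.101 in DMSO and 0.132 in 4OHT, against 0.169 and 0.212 for all genes.

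Activation of ER:RAS was examined in the siNT cells. Between 4OHT and DMSO, 6 of 9 members passed the test, with SMG5, C17orf71, UPF1 and UPF2 higher and UPF3A and UPF3B lower. Of all genes, 78.1% passed (39% higher and 39.1% lower), and 37% did so with a change of at least 1.5-fold, which no member reached. Whether a knockdown acted differently under the 2 treatments was tested as an interaction. For SF3B1 this called 1 member (C19orf61) against 37.8% of all genes, and for RBM39 it called 2 (C19orf61 and UPF3B) against 14.1%. The siSF3B1 and siRBM39 comparisons share their siNT libraries, so the knockdowns were also set against each other directly. That comparison called 7 of 9 members in DMSO, where 67.7% of all genes passed, and in 4OHT it called 7, all but SMG1 and C19orf61, where 71.4% of all genes passed. Without the library that stood apart the 4OHT count was 8. In bulk RNA, fewer cells with an mRNA and less of it per cell cannot be told apart.

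**Figure D2:**
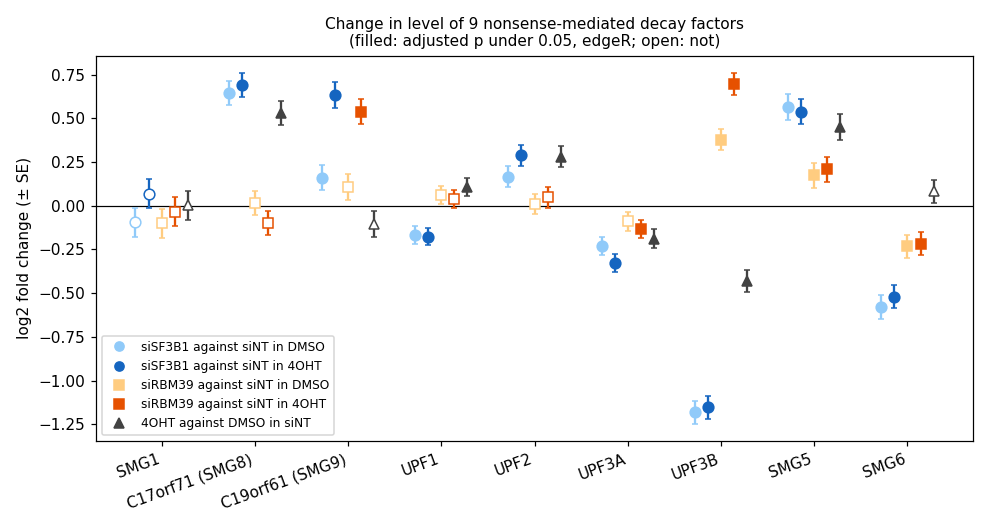
Log2 fold change (vertical axis, with bars of 1 standard error from the edgeR fit) of each of the 9 members (horizontal axis) for siSF3B1 and siRBM39 against siNT in each treatment and for 4OHT against DMSO in siNT cells, with filled points for an adjusted p under 0.05. UPF3B lies at -1.18 and -1.15 after siSF3B1 and at 0.38 and 0.70 after siRBM39, and no SMG1 point is filled.

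SMG1, the kinase that phosphorylates UPF1, is encoded on chromosome 16 (GRCh37, chr16:18816182-18937730, minus strand). Its level had a lowest, median and highest value of 114, 124 and 154 CPM in DMSO siNT and of 117, 126 and 141 CPM in 4OHT siNT. After siSF3B1 it was at 110, 119 and 129 CPM in DMSO and 128, 132 and 144 CPM in 4OHT. All of these ranges overlapped. After siRBM39 the values were 84.4, 120 and 137 CPM in DMSO and 69.8, 130 and 146 CPM in 4OHT, where the lowest value came from the library that stood apart. In DMSO the 84.4 CPM was that of siRBM39-06 replicate 1. No comparison over all libraries called SMG1, and its log2 fold changes after knockdown were between -0.10 and 0.07 (SE 0.08, adjusted p of 0.2998 to 0.7467, edgeR). Without replicate 4 the siRBM39 comparison in DMSO called it (-0.19, adjusted p = 0.0217).

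C17orf71 encodes SMG8, a subunit that regulates the SMG1 kinase (chr17:57286761-57292600, plus strand). It was at 25.2, 26.6 and 27.8 CPM (lowest, median and highest) in DMSO siNT and at 38.3, 40.3 and 46.7 CPM in DMSO siSF3B1. Under 4OHT the values were 36.3, 38.7 and 40.9 CPM in siNT and 55.5, 61.6 and 70.3 CPM in siSF3B1. Neither pair of groups overlapped, and the log2 fold changes were 0.65 ± 0.07 (SE, adjusted p = 1.26e-11, edgeR) and 0.69 ± 0.07 (adjusted p = 1.20e-12). C17orf71 was also higher in 4OHT than in DMSO siNT cells, by 0.53 on the log2 scale (adjusted p = 1.84e-09), again without overlap. In siRBM39 cells it was at 23.4, 27.2 and 30.4 CPM in DMSO and 36.1, 37.8 and 39.6 CPM in 4OHT without the library that stood apart, which was at 23.2 CPM, and neither comparison called it.

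C19orf61 encodes SMG9, the other regulatory subunit of the kinase complex (chr19:44232135-44259114, minus strand). Its response differed between the treatments by the interaction test. In DMSO it was at 29.95, 31.5 and 35.1 CPM after siNT, 33.2, 36.3 and 40.02 CPM after siSF3B1 and 31.9, 33.7 and 41.9 CPM after siRBM39. Under 4OHT the control value was 29.3, 29.9 and 31.04 CPM, and it was 42.6, 46.8 and 49.5 CPM after siSF3B1 and 36.4, 39.9 and 68.7 CPM after siRBM39. The 68.7 CPM was that of the library that stood apart, and the next value was 43.2 CPM. The groups overlapped in DMSO and did not overlap under 4OHT, where every library of both knockdowns lay above every control. The log2 fold changes under 4OHT were 0.63 ± 0.07 for siSF3B1 (adjusted p = 1.76e-10) and 0.54 ± 0.07 for siRBM39 (adjusted p = 2.90e-08, or 0.42 with adjusted p = 1.48e-10 without the library that stood apart). In DMSO siSF3B1 gave 0.16 (adjusted p = 0.0470), a call that 9 of the alternative settings lost. The interaction terms were 0.47 ± 0.10 (adjusted p = 3.04e-04) and 0.43 ± 0.10 (adjusted p = 0.00269, or 0.31 with adjusted p = 3.17e-04 without that library). The siRBM39 interaction was lost with siNT1 as the only control (0.39, adjusted p = 0.0921).

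UPF1, the helicase on which the pathway turns, lies at chr19:18942768-18979039 on the plus strand. It was at 121, 132 and 135 CPM in DMSO siNT and at 110, 117 and 120 CPM in DMSO siSF3B1, and under 4OHT at 131, 140 and 148 CPM and 121, 124 and 128 CPM. The groups did not overlap, but the change was small, at -0.17 ± 0.05 on the log2 scale in DMSO (adjusted p = 0.00333, edgeR) and -0.18 ± 0.05 in 4OHT (adjusted p = 0.00181). The DMSO call was lost with siNT1 as the only control (adjusted p = 0.0787). After siRBM39 the group as a whole was not called, and the siRNAs gave separate values. UPF1 was at 146 to 155 CPM with siRBM39-06 and at 111 to 128 CPM with siRBM39-08 in DMSO, and at 153 to 162 and 123 to 137 CPM under 4OHT, so that the siRBM39-06 libraries lay above all siNT libraries of their treatment. Between 4OHT and DMSO siNT cells the log2 fold change was 0.11 (adjusted p = 0.0484), and this call was lost in several settings, among them the fit with the replicate number as a block (adjusted p = 0.0539).

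UPF2, the bridge between UPF1 and the UPF3 proteins (chr10:11962021-12085169, minus strand), rose modestly after siSF3B1. In DMSO it was at 48.9, 49.5 and 57.3 CPM in siNT and 48.5, 56.7 and 67.9 CPM in siSF3B1, and under 4OHT at 56.1, 61.8 and 67.7 CPM and 67.7, 77.1 and 81.5 CPM. The ranges overlapped in each treatment, under 4OHT by 1 library. The log2 fold changes were 0.17 ± 0.06 in DMSO (adjusted p = 0.0101, edgeR) and 0.29 ± 0.06 in 4OHT (adjusted p = 2.24e-05). In DMSO siSF3B1-13 libraries were at 48.5 to 54.0 CPM and siSF3B1-16 libraries at 59.3 to 67.9 CPM, and with siSF3B1-13 alone the log2 fold change was 0.04 (adjusted p = 0.585). UPF2 was higher in 4OHT than in DMSO siNT cells by 0.28 on the log2 scale (adjusted p = 3.18e-05), and after siRBM39 it was at 45.8, 50.8 and 59.0 CPM in DMSO and 50.8, 65.2 and 70.6 CPM in 4OHT, which passed in neither treatment. The lowest 4OHT value came from the library that stood apart, and the next lowest value was 62.9 CPM.

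UPF3B, which binds the exon junction complex, changed most among the members after each knockdown, and in opposite directions (chrX:118967985-118986961, minus strand). In DMSO it was at 11.9, 13.5 and 15.6 CPM in siNT, at 5.54, 5.88 and 6.63 CPM in siSF3B1 and at 15.7, 18.2 and 20.8 CPM in siRBM39. Under 4OHT it was at 9.58, 10.1 and 10.8 CPM in siNT, at 4.25, 4.38 and 5.32 CPM in siSF3B1 and at 14.4, 16.3 and 18.6 CPM in siRBM39. No pair of these groups overlapped within a treatment, and both siRNAs against each target gave the same order. The log2 fold changes were -1.18 ± 0.06 and -1.15 ± 0.07 for siSF3B1 (adjusted p = 1.81e-21 and 6.72e-21, edgeR) and 0.38 ± 0.06 and 0.70 ± 0.06 for siRBM39 (adjusted p = 1.39e-06 and 1.94e-13). Set directly against siRBM39, UPF3B in siSF3B1 cells was at 0.339 times the level in DMSO and 0.277 times in 4OHT. It was lower in 4OHT than in DMSO siNT cells, by a log2 fold change of -0.43 ± 0.06 (adjusted p = 2.51e-08). The interaction for siRBM39 was 0.32 ± 0.09 (adjusted p = 0.00796), a call lost with either non-targeting siRNA as the only control (adjusted p = 0.0623 and 0.133).

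UPF3A, the paralogue of UPF3B and a weaker activator of decay (chr13:115047076-115071292, plus strand), was more abundant and changed less. It was at 43.1, 46.8 and 51.1 CPM in DMSO siNT and 34.5, 39.1 and 46.7 CPM in DMSO siSF3B1, and under 4OHT at 37.2, 40.9 and 42.8 CPM and 27.3, 33.3 and 35.1 CPM. The groups overlapped in DMSO and were separate under 4OHT. The log2 fold changes were -0.23 ± 0.05 (adjusted p = 1.31e-04, edgeR) and -0.33 ± 0.05 (adjusted p = 3.61e-07). Where UPF3B rose after siRBM39, UPF3A was at 40.8, 43.1 and 48.1 CPM in DMSO, which did not pass, and fell under 4OHT to 35.2, 37.2 and 40.9 CPM (log2 fold change -0.13, adjusted p = 0.0297). Without the library that stood apart, at 40.9 CPM, the highest value was 38.04 CPM and the fold change -0.15 (adjusted p = 0.0113). The 4OHT call was lost with either non-targeting siRNA alone (adjusted p = 0.104 and 0.0699). UPF3A was also lower in 4OHT than in DMSO siNT cells (log2 fold change -0.19, adjusted p = 0.00122).

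SMG5 and SMG6, the factors that carry UPF1 over to mRNA destruction, moved in opposite directions. SMG5 is the adaptor that brings in deadenylation and decapping (chr1:156219015-156252616, minus strand). It was at 118, 129 and 133 CPM in DMSO siNT and 181, 190 and 199 CPM in DMSO siSF3B1, and under 4OHT at 172, 175 and 179 CPM and 240, 255 and 262 CPM. None of these 4 groups overlapped another, and the 4OHT controls lay between the DMSO groups. The log2 fold changes were 0.56 ± 0.07 and 0.54 ± 0.07 for siSF3B1 (adjusted p = 1.97e-09 and 5.18e-09, edgeR) and 0.45 ± 0.07 for 4OHT in siNT cells (adjusted p = 2.57e-07). After siRBM39 it was at 118, 144 and 187 CPM in DMSO (log2 fold change 0.17, adjusted p = 0.0432) and 172, 191 and 310 CPM in 4OHT (0.21, adjusted p = 0.0119). The highest of these came from the library that stood apart, and without it the 4OHT value was 0.10 (adjusted p = 0.0869). In DMSO the 187 CPM was that of siRBM39-06 replicate 1, and the next value was 152 CPM. The DMSO call was lost in 8 of the alternative settings, and siRBM39-08 alone gave 0.03 (adjusted p = 0.788).

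SMG6, the endonuclease that cuts the mRNA near the stop codon (chr17:1963133-2207079, minus strand), fell after both knockdowns. It was at 80.3, 85.8 and 93.8 CPM in DMSO siNT and at 50.6, 59.1 and 61.1 CPM in DMSO siSF3B1, and under 4OHT at 88.9, 91.3 and 97.7 CPM and 61.4, 64.6 and 66.5 CPM. No siSF3B1 library reached the lowest control. The log2 fold changes were -0.58 ± 0.07 (adjusted p = 1.10e-10, edgeR) and -0.52 ± 0.07 (adjusted p = 1.37e-09). After siRBM39 it was at 65.6, 77.0 and 80.7 CPM in DMSO and 68.2, 75.04 and 118 CPM in 4OHT, which is -0.23 ± 0.07 (adjusted p = 0.00322) and -0.22 ± 0.07 (adjusted p = 0.00445) on the log2 scale. The 118 CPM belonged to the library that stood apart, and without it the highest value was 79.3 CPM and the log2 fold change -0.32 (adjusted p = 2.48e-08). With siRBM39-08 alone the calls were lost (adjusted p = 0.0764 and 0.226). Between the siNT groups SMG6 did not pass.

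Splicing was measured as percent spliced in (PSI), the deposited share of reads that include an exon or keep an intron. The members had 322 such events in the table. Filters asked for enough reads in every library, a PSI range of at least 5 points across libraries and, for introns, balanced reads. Of the 322 events, 22 (9 exons and 13 introns) passed these filters and were fitted with limma on the logit of PSI. These were 9 events of SMG5, 9 of UPF1 and 1 each of SMG6, C17orf71, C19orf61 and UPF2, so SMG1, UPF3A and UPF3B could not be examined this way. Events counted as called when the adjusted p was under 0.05 and the mean difference reached 5 PSI points. Of the 22, 4 were called for siSF3B1 in DMSO (3 higher and 1 lower), against 19.8% of all 13839 events tested, and 3 in 4OHT (2 higher and 1 lower), against 23%. For siRBM39 the count was 0 in both treatments, where 5.78% and 6.31% of all events were called. It was also 0 for 4OHT against DMSO (0.947% of all events) and for the interactions, which needed no minimum difference (0.585% for SF3B1 and 0.0361% for RBM39). Because single libraries held few reads, the reads of each group were also summed and tested with a quasi-binomial model over libraries, a step chosen after the data were seen. The deposited intron reads are corrected values and need not be whole. This tested 262 member events and called 12 for siSF3B1 in DMSO (6.61% of all 169269 events), 14 in 4OHT (8.46%), 2 for siRBM39 in DMSO (1.74%), 3 in 4OHT (1.97%) and 0 for 4OHT against DMSO (0.187%). The 17 events called in at least 1 comparison all matched an exon or intron within the coding part of the reference (MANE) transcript.

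The sequences of the events that stand for each kind of change are shown here from GRCh37, on the strand of the gene. For the 3 exons the capitals mark the exon and the lower-case letters are the splice site bases of the introns beside it. For the introns of SMG1 and UPF1 the capitals mark the first and last bases at the splice sites, and for the intron of SMG5 the first stop codon met in the reading frame. Each of the 6 stretches was found once in GRCh37, so none of them had an exact second copy, the SMG1 stretches included.
UPF3B exon 6 (chrX:118975698-118975741, minus strand, skipped after siSF3B1): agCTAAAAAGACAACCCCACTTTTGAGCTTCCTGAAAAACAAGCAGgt
SMG5 exon 11 (chr1:156236332-156236469, minus strand, skipped after siSF3B1): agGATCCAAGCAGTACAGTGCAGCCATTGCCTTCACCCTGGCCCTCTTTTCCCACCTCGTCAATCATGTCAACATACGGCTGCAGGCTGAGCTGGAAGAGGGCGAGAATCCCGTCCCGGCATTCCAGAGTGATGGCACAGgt
SMG1 exon 52 (chr16:18841541-18841691, minus strand, skipped after both knockdowns): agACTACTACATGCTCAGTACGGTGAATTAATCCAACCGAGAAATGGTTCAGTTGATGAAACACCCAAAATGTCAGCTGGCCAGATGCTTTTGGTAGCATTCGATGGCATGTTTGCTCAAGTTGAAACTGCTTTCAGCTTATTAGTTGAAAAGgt
SMG1 intron 43 (chr16:18849789-18849872, minus strand, kept after siRBM39): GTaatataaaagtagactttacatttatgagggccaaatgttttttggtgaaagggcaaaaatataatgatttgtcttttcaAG
UPF1 intron 9 (chr19:18965519-18965687, plus strand, kept after siSF3B1): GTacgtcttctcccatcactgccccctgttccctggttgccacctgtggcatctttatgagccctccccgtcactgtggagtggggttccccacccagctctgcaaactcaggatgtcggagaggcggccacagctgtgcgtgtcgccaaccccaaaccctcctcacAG
SMG5 intron 21 (chr1:156220462-156220648, minus strand, kept after siSF3B1 in DMSO): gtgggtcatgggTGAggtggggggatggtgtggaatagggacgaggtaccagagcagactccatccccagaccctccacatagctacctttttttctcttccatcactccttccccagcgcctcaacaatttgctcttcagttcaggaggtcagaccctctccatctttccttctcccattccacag

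UPF1 kept introns after siSF3B1. Its intron 9 (HsaINT0178091, 169 bases) was at 0 to 1.26 PSI (median 0) in DMSO siNT and 0 to 3.37 (median 0) in 4OHT siNT. After siSF3B1 the lowest, median and highest values were 5.56, 15.6 and 21.04 PSI in DMSO and 8.03, 14.9 and 36.7 in 4OHT, so that every library lay above every control. The mean differences were 14.3 PSI points (adjusted p = 2.69e-12, limma) and 15.9 PSI points (adjusted p = 3.73e-13), and in siRBM39 cells the median was 0 in both treatments. Intron 13 (HsaINT0178073, 576 bases) was at 0 in all siNT libraries and at a median of 6.79 PSI in DMSO siSF3B1, where 0 was the lowest value, and 6.22 in 4OHT siSF3B1. Its differences were 6.07 points (adjusted p = 5.57e-06) and 6.90 points (adjusted p = 6.19e-08). The DMSO difference fell under 5 points with siSF3B1-13 alone (4.47) or without replicate 3 (4.31).

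Intron 16 of UPF1 (HsaINT0178076, chr19:18971248-18971634, 387 bases) was tested only on summed reads, and it had the largest retention among the UPF1 introns called. It was kept in 0.675% of 154 reads in DMSO siNT and in none of 180.5 reads in 4OHT siNT (upper Wilson limit 2.09%). In siSF3B1 cells it was kept in 25.5% of 181 reads in DMSO (95% Wilson interval 19.6 to 32.2%) and 26.4% of 202 reads in 4OHT (20.7 to 32.7%), and in all 8 libraries of each group it was above 0. The differences were 24.8 points (adjusted p = 4.14e-11, quasi-binomial test with Benjamini-Hochberg adjustment) and 26.4 points (adjusted p = 7.88e-16). Intervals of this kind are computed on summed reads, so they leave out the spread between libraries. They also treat each read as separate, although the reads carry no molecular identifiers. In single siSF3B1 libraries the PSI of this intron was 15.1 to 44.1 in DMSO and 14.95 to 74.8 in 4OHT. Over the 11 UPF1 introns covered in every library, mean retention had medians of 0.41 and 0.35 PSI in siNT and 3.36 (1.16 to 4.28) and 3.44 (2.64 to 6.07) in siSF3B1, with no overlap. Its increase was 2.75 points in DMSO (adjusted p = 9.83e-10, limma) and 3.21 points in 4OHT (adjusted p = 6.72e-12). The 11 introns include introns 9 and 13, so this mean is not independent of the calls of those introns.

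Mean retention could be computed for 4 members, and it was called for UPF1 and SMG5 after siSF3B1 in both treatments. Over all 2822 genes with at least 3 such introns the called share was 38.2% in DMSO and 50.9% in 4OHT. For SMG5, over 15 introns that include intron 21, the differences were 0.59 points (adjusted p = 0.00308) and 0.60 points (adjusted p = 0.00194). Both were lost without the filter on unbalanced introns (adjusted p = 0.0585 and 0.172). C19orf61 (4 introns) and UPF2 (3 introns) were not called, with group medians of 0 to 1.14 PSI and 0 PSI. None of the 4 was called after siRBM39, where 6.06% of all genes were called in DMSO and 6.09% in 4OHT, or for the interactions (3.51% for SF3B1 and 0% for RBM39).

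In the annotated UPF1 transcript of 1118 codons, keeping any of the 3 introns would lead to an early stop codon. This stop lay within the intron for introns 13 and 16, and not within it for intron 9. With intron 9 kept the frame ran for 489 codons, with intron 13 for 623 and with intron 16 for 767, where the stop began at base 2 of the intron. All 3 stops lay more than 50 bases before the last exon junction, the position that marks a stop as premature in the classical model of NMD. The distances were 2059, 2064 and 1443 bases. These are properties of the annotated sequence, and no decay was measured.

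**Figure D3:**
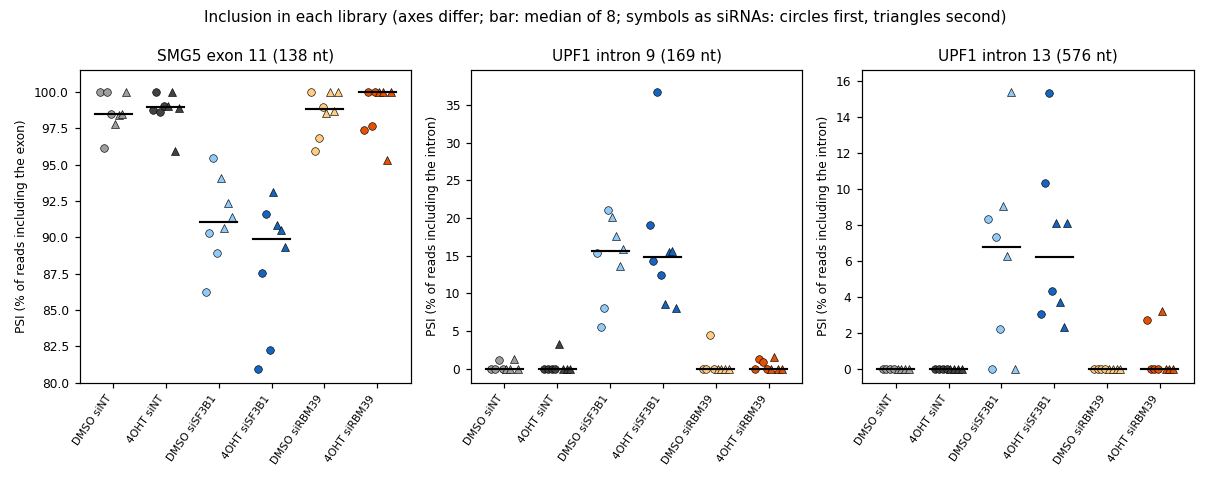
Percent spliced in (vertical axis) of SMG5 exon 11 and UPF1 introns 9 and 13 in the 6 groups (horizontal axis, with the vertical range set for each event), with 1 point per library, shaped by siRNA, and a line at the group's median. UPF1 intron 9 was at 0 to 3.37 in siNT and at 5.56 to 36.7 in siSF3B1, while SMG5 exon 11 was at 95.9 to 100 in siNT and 81.0 to 95.4 in siSF3B1.

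SMG5 was the other member with events called on single libraries. Its exon 11 (HsaEX0060448, 138 bases) was included at 96.1, 98.5 and 100 PSI in DMSO siNT and 95.9, 99.0 and 100 PSI in 4OHT siNT. In siSF3B1 cells it was at 86.2, 91.0 and 95.4 PSI in DMSO and at 81.0, 89.9 and 93.1 PSI in 4OHT, below every control. The differences were -7.49 points (adjusted p = 2.46e-06, limma) and -10.5 points (adjusted p = 6.48e-08). Loss of this exon keeps the reading frame, leaving 970 of 1016 codons. Its intron 21 (HsaINT0155401, 187 bases) rose from 0 to 2.44 PSI in DMSO siNT to 1.05, 4.11 and 18.6 PSI in DMSO siSF3B1, by 5.18 points (adjusted p = 7.30e-05), and the groups overlapped. Under 4OHT the difference was 3.62 points (adjusted p = 1.82e-04), which is less than the 5 points required. Without replicate 2, which holds the value of 18.6, the DMSO difference was 3.80 points. The stop in this intron is not more than 50 bases before the last junction.

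UPF3B, the member that fell most after siSF3B1, also lost inclusion of a coding exon there in both treatments, as far as its few reads show. Exon 6 (HsaEX0069452, 44 bases) was included in all 74 reads of DMSO siNT and all 50 reads of 4OHT siNT (lower Wilson limits 95.1% and 92.9%). In siSF3B1 cells it was included in 81.9% of 36 reads in DMSO (95% Wilson interval 65.0 to 90.2%) and 61.5% of 22 reads in 4OHT (42.95 to 80.3%), and it was below 100% in 4 and 5 of 8 libraries. It was included in all 104 and 85 reads of the siRBM39 groups. The differences after siSF3B1 were -18.1 points (adjusted p = 0.0191, quasi-binomial test) and -38.5 points (adjusted p = 0.00185). By siRNA, inclusion in DMSO was 63.3% of 13 reads with siSF3B1-13 and 92.4% of 23 reads with siSF3B1-16, and under 4OHT 71.8% and 51.3% of 11 reads each. With siSF3B1-16 alone the DMSO adjusted p was 0.398. Without exon 6 the annotated frame would shift and end after 249 of 483 codons, 508 bases before the last junction.

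Intron 9 of UPF3B (HsaINT0178131, chrX:118972015-118972329, 315 bases) was kept more often after siSF3B1. It was kept in 0.821% of 129 reads in DMSO siNT and in 0% of 78 reads in 4OHT siNT (upper Wilson limit 4.69%), against 16.1% of 59.4 reads and 15.6% of 47.3 reads in siSF3B1. The differences were 15.3 points (adjusted p = 0.00147) and 15.6 points (adjusted p = 0.00229), with 6 of 8 libraries above 0 in each siSF3B1 group. In siRBM39 cells, where UPF3B mRNA rose, it was kept in 3.38% and 1.97% of reads. A transcript with this intron would stop at base 44 of the intron, after 350 codons and 564 bases before the last junction. Exon 5 (111 bases, in frame) changed by -9.05 points in DMSO siSF3B1 (adjusted p = 0.0336), and with siSF3B1-13 alone by 0 points. In 4OHT siSF3B1 the change of exon 5 was -2.86 points and was not called (adjusted p = 0.552, quasi-binomial test).

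**Figure D4:**
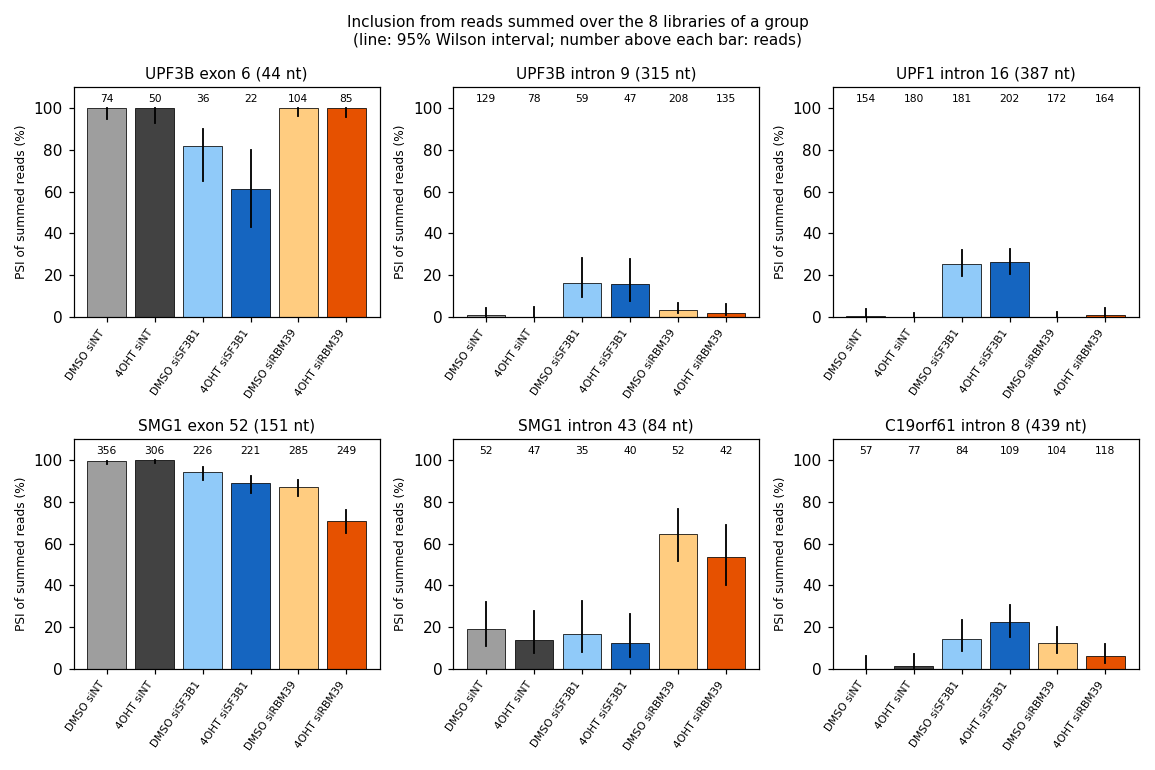
Percent spliced in (vertical axis) from the reads of each group's 8 libraries summed (bars, with the number of reads above and a line for the 95% Wilson interval) in the 6 groups (horizontal axis), for UPF3B exon 6 and intron 9, UPF1 intron 16, SMG1 exon 52 and intron 43, and C19orf61 intron 8. SMG1 exon 52 falls to 71.02 and SMG1 intron 43 rises to 53.5 in 4OHT siRBM39, while UPF1 intron 16 is at 25.5 and 26.4 in the siSF3B1 groups and at most 0.952 elsewhere.

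SMG1 showed changes in splicing although its level was not called. Its exon 52 (HsaEX0060442, 151 bases) was included in 99.5% of 356 reads in DMSO siNT and in all 306 reads of 4OHT siNT. After siRBM39 it was included in 86.9% of 285 reads in DMSO (95% Wilson interval 82.6 to 90.4%) and 71.02% of 249 reads in 4OHT (65.2 to 76.4%), and was below 100% in 7 of 8 libraries of each group. The differences were -12.5 points (adjusted p = 3.25e-06, quasi-binomial test) and -29.0 points (adjusted p = 1.53e-16). Both siRNAs gave lower inclusion, at 83.9% and 89.0% in DMSO and 68.3% and 74.4% in 4OHT for siRBM39-06 and siRBM39-08. After siSF3B1 it was at 94.2% in DMSO (difference -5.22 points, adjusted p = 0.0194, lost in 5 settings) and 89.0% in 4OHT (-11.0 points, adjusted p = 3.83e-06). Without this exon the frame would end after 2931 of 3661 codons, 1961 bases before the last junction.

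The next 2 exons of SMG1 were also called. Exon 53 (HsaEX0060437, chr16:18841248-18841437, 190 bases) was at 99.4% and 100% in siNT and at 89.2% and 90.02% in siSF3B1. The difference was -10.2 points under DMSO (adjusted p = 1.40e-04) and -9.98 points under 4OHT (adjusted p = 5.62e-06). By siRNA, siSF3B1-13 and siSF3B1-16 gave 86.8% and 92.1% in DMSO and 80.7% and 97.1% in 4OHT, and with siSF3B1-16 alone the 4OHT call was lost (adjusted p = 0.0934). After siRBM39 it was at 97.3% in DMSO, which was not called, and 92.7% in 4OHT (-7.30 points, adjusted p = 5.29e-04). Exon 54 (470 bases) was at 100% in every group of siNT and siRBM39 and changed by -9.96 points in 4OHT siSF3B1 (adjusted p = 4.04e-04).

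Intron 43 of SMG1 (HsaINT0155363, 84 bases) was, of the member events called, the one with the largest change after siRBM39. It was kept in 19.3% of 52.3 reads in DMSO siNT and 13.9% of 47.2 reads in 4OHT siNT, and in 16.5% and 12.2% of reads after siSF3B1. After siRBM39 it was kept in 64.7% of 51.99 reads in DMSO (95% Wilson interval 51.8 to 76.8%) and 53.5% of 42.1 reads in 4OHT (39.9 to 68.8%). The differences were 45.5 points (adjusted p = 6.17e-04) and 39.6 points (adjusted p = 0.00994), and siRBM39-06 and siRBM39-08 gave 60.9% and 68.4% in DMSO and 48.6% and 59.8% in 4OHT. With fewer controls the adjusted p reached 0.329 in DMSO with siNT1 alone and 0.227 in 4OHT. The intron keeps the frame and holds no stop in it, so that the annotated protein of 3661 codons would become 3689.

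C19orf61 had 5 events called on summed reads, all for siSF3B1. Exon 6 (HsaEX0010028, 113 bases) was included in 98.2% and 97.4% of siNT reads and in 89.6% and 89.3% of siSF3B1 reads, which is a difference of -8.59 points in DMSO (adjusted p = 3.19e-04) and -8.06 points in 4OHT (adjusted p = 6.43e-04). Exons 4 (265 bases) and 5 (98 bases) changed by -6.34 and -6.49 points in 4OHT. Intron 8 (439 bases) was at 0% and 1.42% in siNT and at 14.5% and 22.2% in siSF3B1, with differences of 14.5 points (adjusted p = 0.00732) and 20.8 points (adjusted p = 1.58e-04), and it was at 12.2% and 6.24% after siRBM39. Intron 13 (1183 bases) changed from 4.01% to 23.2% in 4OHT (adjusted p = 0.00155). Without exon 6 the frame would end after 205 of 520 codons. SMG6, C17orf71, UPF2 and UPF3A had no event called by either test.

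The rest of the pathway was described from lists of genes by role, which were also chosen with earlier results of these data known. Of the mRNAs of 10 proteins of the exon junction complex tested, 8 rose and none fell after siSF3B1 in DMSO. Of all genes, 36.5% rose and 36.2% fell there. In 4OHT 9 rose and 1 fell, where 39.4% of all genes rose and 37.6% fell. The median log2 fold change was 0.47 in DMSO and 0.33 in 4OHT, against 0.02 and 0.03 for all genes. The mRNAs of ACIN1 (0.76 and 0.60) and SAP18 (0.73 and 0.82), peripheral proteins of the complex, rose at least 1.5-fold in both treatments. The mRNAs of the core protein MAGOH (0.69) and the peripheral RNPS1 (0.66) did so in DMSO. The mRNA of WIBG, which takes part in disassembly of the complex, fell by 0.11 on the log2 scale in 4OHT. After siRBM39, 8 of the 10 rose in DMSO and 6 in 4OHT and none fell. Of all genes, 23.9% rose in DMSO and 32.2% in 4OHT, and 22.2% and 24.3% fell. The list medians were 0.22 and 0.20, against 0.02 and 0.05 for all genes. In 4OHT against DMSO siNT cells 4 rose and 1 fell, where 39% of all genes rose and 39.1% fell. The mRNA of the core helicase EIF4A3 rose by 0.69 in that comparison.

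The mRNAs of the 14 other NMD factors tested moved in both directions. In siSF3B1 cells 6 rose and 5 fell in DMSO and 6 rose and 6 fell in 4OHT, where 72.7% and 77% of all genes were called. Among those named by the rule, the mRNA of the cap-binding protein NCBP2 rose in 4OHT (log2 fold change 1.04). The largest falls were in the mRNAs of NBAS (-1.45), which takes part in NMD at the endoplasmic reticulum, and of the helicase MOV10 (-0.75). In 4OHT against DMSO siNT cells 10 rose and 3 fell, where 39% of all genes rose and 39.1% fell. The list median was 0.32, against -0.0019 for all genes. Of the mRNAs of 11 decapping and decay enzymes, 5 rose and 5 fell in 4OHT siSF3B1, where 39.4% of all genes rose and 37.6% fell. The mRNAs of CNOT8 (0.78) and EDC4 (0.45) rose most, and those of the exonuclease XRN1 (-1.26) and the exosome subunit EXOSC10 (-0.79) fell most.

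Of the 13 listed RNAs that are known NMD targets, 9 were among the genes tested, and GAS5, SNHG1, SNHG12 and ZFAS1 were not. After siSF3B1, 7 rose and 1 fell in each treatment, 6 of the rises being at least 1.5-fold. Over all genes, 36.5% rose in DMSO and 39.4% in 4OHT, and 25.7% and 31.8% changed at least 1.5-fold in either direction. The median log2 fold change of the list was 0.75 in DMSO and 0.63 in 4OHT, against 0.02 and 0.03 for all genes. The stress response genes DDIT3 (2.34) and GADD45B (1.01) rose most in 4OHT, and CARS, a cysteinyl-tRNA synthetase, was the gene that fell (-0.88). After siRBM39, 4 rose and 1 fell in each treatment. Of all genes, 23.9% rose in DMSO and 32.2% in 4OHT, and 22.2% and 24.3% fell. The list medians were 0.21 and 0.14, against 0.02 and 0.05 for all genes. In 4OHT against DMSO siNT cells 1 rose and 5 fell, where 39% of all genes rose and 39.1% fell.

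Finally, the pattern of each member over the 48 libraries was set beside all other tested genes as a description, by Pearson's r of log2 CPM. The libraries share the knockdowns and treatments, which moved most genes, so high values are common. The most similar gene was SNAPC4 for SMG5 (r = 0.978), BZW1 for C17orf71 (0.977), FGD1 for UPF3B (0.967), ARCN1 for UPF2 (0.937) and HMGN1 for UPF3A (0.927). For SMG6 it was FDPS (0.911), for SMG1 QSER1 (0.904), for UPF1 PIP5K1C (0.902) and for C19orf61 C20orf96 (0.884). Within groups the value for UPF3B and FGD1 was 0.198, so that this likeness lay between the groups. Among the members themselves the highest values were 0.774 for SMG5 with C19orf61, 0.768 for SMG5 with C17orf71 and 0.763 for C17orf71 with UPF2. Within groups these values were 0.823, -0.582 and -0.00848, so that only the first was positive there. The lowest were -0.861 for C17orf71 with UPF3A and -0.839 for C17orf71 with UPF3B (-0.640 and -0.166 within groups), and the paralogues UPF3A and UPF3B had an r of 0.595 (0.301 within groups). All of these correlations include the library that stood apart, and they were not computed without it. That library was the outlying one of its group for SMG5, C19orf61, C17orf71 and UPF2. It can therefore move their within-group values in either direction.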

How the data were processed

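RNA from 48 libraries of IMR90 ER:RAS cells was sequenced, and the authors deposited gene counts, cRPKM values (RPKM corrected for mappability) and splicing events from vast-tools, together with a table of normalised CPM whose signal was scaled by edgeR. Deposited PSI values are percent of inclusion reads, each with a deposited quality entry that holds read scores and counts. The submitters' processing notes name hg19, edgeR and limma. Event positions are given in GRCh38, so events were matched to GENCODE exons by the annotation's own record of that build and are printed in GRCh37. The members and lists were chosen with earlier results of these data known. Named were the 9 members, SF3B1 and RBM39, the 2 largest rises and falls of each list in 4OHT siSF3B1, the exon junction complex genes called at 1.5-fold, and the called events. One item that this rule names is not reported here.

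Genes with at least 10000 counts over all libraries were tested on the counts with edgeR 4.0.16 (quasi-likelihood test, TMM scaling, 1 mean per group, all 6 groups) in R 4.3.3. Events with PSI in all libraries, at least VLOW coverage, a range of 5 points and, among introns, read balance with p of 0.05 or more were fitted with limma 3.58.1 on the logit of 0.01 + 0.98 times PSI. Mean retention used genes with at least 3 introns that passed the coverage and balance filters, without the range filter. Summed reads needed 20 reads in each group. All p-values were adjusted by Benjamini-Hochberg, over all genes tested or, for events, over all events of the class (exons, introns or splice sites). limma-voom, DESeq2 1.42.0, other filters, single siRNAs and left-out replicates were alternatives. Depth was 31467221 to 52734636 counts a library, and UPF3B had the fewest reads of the members. Same-numbered libraries did not deviate together (264 pairs, median r 0.0170, 77 of them over 0.1, against a median of -0.00135 in 792 other pairs), so the numbers were not used as pairs. No 2 libraries with the same siRNA and treatment held the same counts (72 pairs, chi-square per degree of freedom of 2.00 to 583). The title and the treatment label of 4 4OHT siNT2 libraries differ in the siRNA number, which leaves their group unchanged.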

Additional observations from a re-analysis of the deposited data

Results flagged for a closer look

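In 90 groups of 8 libraries, taken over the members, the 2 targeted genes and the 4 events called on single libraries, 16 held a lowest or highest value whose gap to the next was more than 0.526 of the group's range (Dixon's critical value at 95%). For independent values with a normal distribution, chance gives about 1 in 20. PSI values are bounded and the genes share libraries, so that rate need not hold for these 90 groups. Of these 16, 7 came from the library of 4OHT siRBM39-08 replicate 4, which stood apart over all genes. It was at 69.8 CPM for SMG1, 310 for SMG5, 118 for SMG6, 23.2 for C17orf71, 68.7 for C19orf61, 50.8 for UPF2 and 224 for SF3B1. Of the other expression values, SMG5 was at 118 CPM in DMSO siNT1 replicate 1, SMG6 at 50.6 CPM in DMSO siSF3B1-13 replicate 4, and C19orf61 at 41.9 CPM in DMSO siRBM39-06 replicate 1.

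Single libraries also stood out in PSI, where few reads lie behind a value. SMG5 exon 11 was at 95.9 in 4OHT siNT2 replicate 3. SMG5 intron 21 was at 18.6 in DMSO siSF3B1-13 replicate 2 and at 9.34 in 4OHT siSF3B1-16 replicate 2. UPF1 intron 9 was at 3.37 in 4OHT siNT2 replicate 1, at 36.7 in 4OHT siSF3B1-13 replicate 3 and at 4.50 in DMSO siRBM39-06 replicate 3.

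By edgeR's interaction test, the response to a knockdown differed between 4OHT and DMSO for C19orf61, UPF3B and RBM39. For C19orf61 the log2 difference was 0.47 after siSF3B1 and 0.43 after siRBM39, for UPF3B it was 0.32 after siRBM39, and for RBM39 itself it was 0.23 after siSF3B1 and -0.25 after siRBM39. The RBM39 calls were lost in 5 settings for siSF3B1 (adjusted p of 0.0536 to 0.168) and in 4 for siRBM39 (0.0588 to 0.104).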

How the results depend on the processing

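Of 1091 recomputed log2 fold changes 1007 kept their direction and side of the threshold, 75 lost the call, 1 gained it (SMG1 for siRBM39 in DMSO without replicate 4, -0.19) and 8 changed sign. Of 99 PSI differences 90 kept the call, of 253 from summed reads 202, of 32 retention differences 30, and of 309 counts 280 stayed within 1.5 times.

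The sign changed only for SMG1, which was called in neither comparison. For siRBM39 in 4OHT it was -0.03 and became 0.074 with siRBM39-06 alone and 0.05 without the library that stood apart, and it was -0.11 to 0.064 with each replicate left out. For 4OHT in siNT cells it was 0.00 and became -2.68e-04 (DESeq2), -2.70e-04 (DESeq2 size factors), -0.00416 (only the groups compared), -0.010 (siNT1 alone), and -0.038 to 0.028 with each replicate left out.

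With siNT1 as the only control the members called were 5 for siSF3B1 in DMSO, 1 and 3 for siRBM39 in DMSO and 4OHT, and 0 for the siRBM39 interaction. With siNT2 alone they were 2 for siRBM39 in 4OHT and 1 for its interaction. With siRBM39-06 alone 5 were called in DMSO, and with siRBM39-08 alone 4 between siSF3B1 and siRBM39 in DMSO. A fit of only the groups compared called 2 for the siSF3B1 interaction.

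Splicing calls for siSF3B1 depended on coverage. They were 1 in DMSO and 0 in 4OHT with LOW coverage required, 1 in DMSO with a minimum of 10 points, 8 in DMSO and 11 in 4OHT with no minimum, 7 in 4OHT without the balance filter, and 12 and 14 on summed reads. For siRBM39 they were 1 in DMSO without the balance filter, 1 in 4OHT with no minimum, and 2 and 3 on summed reads, and siSF3B1-13 alone gave 1 interaction. Mean retention after siRBM39 in 4OHT called 1 member without the balance filter. The cause of these shifts was not tested.

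Same-numbered libraries did not deviate together, and with the replicate number as a block the call of UPF1 for 4OHT in siNT cells was lost (0.11, adjusted p = 0.0539), and this block changed no other call. Depth limits UPF3B, whose exon 6 rested on 22 to 104 reads a group.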
